A study of Mus musculus with 123 samples.

Results

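At E9.5 the sorted heart cells of the series fall into groups by the start of their titles, and 28 cells titled N530 were compared with cells titled C. A cell entered when the summed level of Ttn, Actc1, Myh6 and Tnnt2, which encode titin, cardiac α-actin, α-myosin heavy chain and cardiac troponin T, reached 1000 CPM (counts per 1000000 counts of the cell). This kept 28 of 28 N530 cells and 11 of 14 C cells, so that 39 of the 42 E9.5 cells and of the 123 cells of the series were compared. The C cells just outside the minimum stood at 176, 75.9 and 4.35 CPM, and the lowest cells inside it were an N530 cell at 1564 CPM and a C cell at 15813 CPM.

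The series holds single cells from the hearts of αMHC-GFP mice at E9.5, E12.5 and P1, the first day after birth. In these mice the promoter of Myh6 drives GFP (green fluorescent protein), so that the sort takes cells in which that promoter is active and does not by itself exclude other cells. E9.5 hearts were digested with collagenase, sorted for GFP and captured on Fluidigm C1 chips, and each cell's RNA was amplified with the SMART-Seq V4 kit. All cells compared share strain, tissue, stage and labelled protocol, and the labels name no treatment, animal, litter, pool, chip or heart region. What the titles N530 and C stand for is not stated, so each was taken as 1 sample of many cells, cells were not used as replicates, and no test was made between them.

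Around E9.5 the mouse heart is a looping tube that is already beating. Its muscle cells build sarcomeres, in which myosin thick filaments, spanned by titin, pull on actin thin filaments anchored at the Z-disc. Regions of the tube carry their own transcripts. The chambers are marked by natriuretic peptide A (Nppa), the ventricles by ventricular myosin light chain (Myl2) and β-myosin heavy chain (Myh7), and the atrioventricular canal by Bmp2, Tbx2, Msx2 and Id2, while cells still joining from the second heart field carry Isl1 and Fgf10. Heart muscle cells of this stage also divide. Digestion and sorting are known to induce immediate early and heat shock genes in many tissues, so those genes were examined beside the regional ones.

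The N530 libraries were far deeper. Their total counts ran from 1437114 to 6351742 with a median of 3151946, against 268301 to 588443 with a median of 444013 in the C cells. Each cell was therefore thinned at random to 100000 counts, on which 1 count is worth 10 CPM. Genes found are gene symbols with at least 1 thinned count. The N530 cells had 1351 to 5181 genes found with a median of 3054, and the C cells had 3421 to 4852 with a median of 4076. The difference between the medians was -1021.5 genes. The deeper libraries thus held fewer genes at equal counts, with wider scatter, and the ranges of the sets overlapped. Without thinning the medians were 4400 and 4554 genes.

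The missing genes were spread over many levels of abundance. Among 336 genes that stood between 100 and 200 CPM in both sets, the median gene was found in 57.1% of N530 cells and in 81.8% of C cells, and 308 of these genes were found in a smaller share of N530 cells. Among 322 genes between 200 and 500 CPM the shares were 78.6% and 100%. In every one of the 28 N530 cells 109 genes were found, and in every one of the 11 C cells 754, while 11474 and 10105 genes were found in at least 1 cell. The number of cells bears on these counts, and 667 genes were found in all of the 10 N530 cells whose genes found lay within the range of the C cells. A gene of a given mean level was therefore carried by fewer N530 cells, at higher levels in those cells. Pairs of N530 cells also had lower correlations than pairs of C cells. The median Pearson correlation of ln(counts per 10000 + 1) across 9494 genes was 0.340 over 378 pairs of N530 cells, 0.561 over 55 pairs of C cells and 0.392 over 308 mixed pairs. Over 45 pairs of the 10 N530 cells in the C range of genes found it was 0.473. These correlations describe the cells at this depth, and the pairs share cells.

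For each gene the thinned counts of a set were summed and expressed as CPM, with exact 95% Poisson intervals that cover counting error only, since the reads carry no molecular identifiers. Of 8130 genes with a mean of at least 10 CPM, 144 were called higher in N530 (1.77% of those tested) and 208 were called lower (2.56%). A call asked for at least a 4-fold ratio, 50 CPM in the higher set and detection in at least 50% of its cells. A called gene is past these sizes only, and no p-value stands behind it. The balance turned with unthinned cells averaged as CPM, where 344 genes were called higher and 216 lower. The median log2 ratio of N530 to C over all genes tested was 0.10.

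Among sarcomere transcripts, thick filament genes were higher in N530 in sum, while the thin filament sums overlapped. The 14 thick filament genes summed to 3280 CPM in the lowest, 66015 CPM in the median and 150390 CPM in the highest N530 cell, and to 15270, 23600 and 36550 CPM in the C cells. In 25 of 28 N530 cells the sum lay above every C cell. Over the sets it was 67159 CPM (66856 to 67463) in N530 and 24964 CPM (24669 to 25261) in C, a log2 ratio of 1.43. Ttn is part of this sum and made up 87690 of the 150390 CPM in the highest N530 cell. With deposited TPM the log2 ratio of the list was 0.65. The thick filament genes called higher were 5 of the 13 tested, and none was lower, beside 1.77% and 2.56% of all genes tested. The 15 thin filament genes summed to 4410, 29910 and 78070 CPM in the lowest, median and highest N530 cell and to 19820, 28110 and 45350 CPM in the C cells. The C cells lay within the wider range of the N530 cells, the log2 ratio was 0.09, and no thin filament gene was called.

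Ttn, the spring and ruler of the sarcomere, was measured at 870, 30215 and 87690 CPM in the lowest, median and highest N530 cell and at 4170, 5730 and 13940 CPM in the C cells. Its set levels of 30383 and 7195 CPM differed 4.22-fold, and the N530 cell was the higher in 83.4% of N530 and C pairs, with ties split evenly. The widest spread within a set thus belonged to N530, whose lowest cell lay below all C cells. Ttn and Myh6 are among the genes that set the minimum, so the choice of cells touched their values. Myh7, the β-myosin heavy chain of the embryonic ventricle, stood at 170, 3870 and 14270 CPM in N530 cells and at 40, 340 and 3570 CPM in C cells, a 4.44-fold ratio of the set levels of 4566 and 1029 CPM. Mybpc3, cardiac myosin binding protein C, stood at 260, 1635 and 9980 CPM and at 80, 370 and 1050 CPM, and was 5.56-fold higher in N530. The sets of these cells overlapped for both genes, but their medians were far apart. Myom1, which encodes the M-band protein myomesin, was 6.04-fold higher in N530.

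Light chain genes and Myh6 were not called. Myh6 stood at 9690 CPM in N530 and 3439 CPM in C (log2 ratio 1.49), and Myl7, the atrial regulatory light chain that all early heart muscle carries, at 11633 and 7815 CPM (0.57). Myl2, its ventricular counterpart, stood at 672 and 844 CPM (-0.33). Among thin filament genes, Actc1 was measured at 470, 12180 and 40710 CPM in the lowest, median and highest N530 cell and at 7090, 13950 and 27520 CPM in the C cells, with a log2 ratio of -0.16. Tnnt2 had a log2 ratio of -0.13, the slow skeletal troponin I gene Tnni1 0.20 and α-tropomyosin (Tpm1) 0.51. Actc1 and Tnnt2 are also among the genes that set the minimum, and with all 14 C cells the thin filament log2 ratio was 0.42 in place of 0.09.

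**Figure D1:**
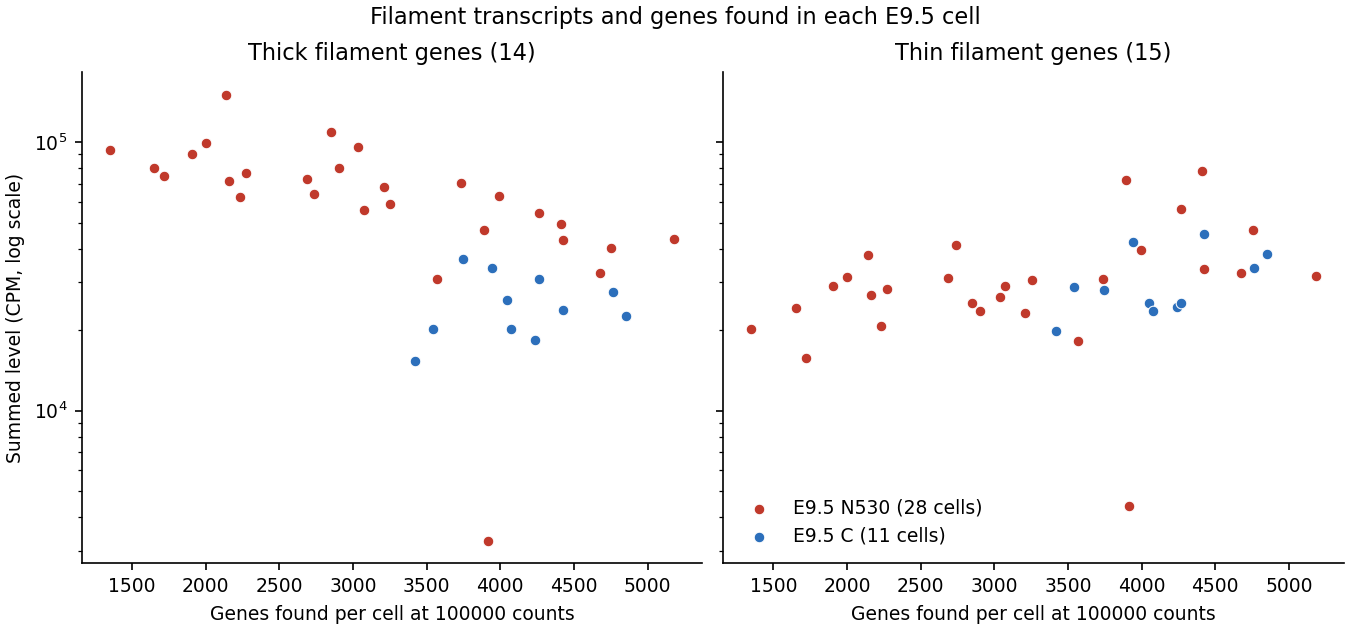
Summed CPM of thick (left) and thin (right) filament genes, on a log scale, against the genes found in each E9.5 cell after thinning to 100000 counts. Each point is 1 cell, red for N530 (28) and blue for C (11). N530 cells with few genes found have the highest thick filament sums, which include Ttn. Thin filament sums of the sets lie over each other, and 1 N530 cell with 3917 genes found lies far below the others in both panels.

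Within set N530 the thick filament sum, which includes Ttn, went down as the genes found went up. Pearson's r was -0.671 and Spearman's rho -0.790 over 28 cells, and r was -0.655 without the 2 cells farthest from the median number of genes. For Ttn alone r was -0.730, and no value was taken for the sum without Ttn. Ttn made up 65930 of 93440 CPM in the N530 cell with the fewest genes found (1351). It made up 7110 of 43430 CPM in the N530 cell with the most (5181). For the thin filament sum r had the other sign, 0.436. Over the 11 C cells r was 0.110 for thick and 0.495 for thin filaments. These are descriptions of cells of 1 sample each. Both axes share the fixed total of 100000 counts, so that a cell rich in a few transcripts has fewer counts left in which other genes can be found. The 100 most abundant genes of a cell took 24.5% to 51.3% of its counts in N530 (median 34.9%) and 28.1% to 34% in C (median 31.1%).

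To set cells of like complexity beside each other, the 10 N530 cells whose genes found lay within the range of the C cells were also compared with the 11 C cells. This comparison was chosen after the data were seen. In these cells the thick filament log2 ratio was 0.80 in place of 1.43, and that of Ttn was 0.57 in place of 2.08, while the thin filament ratio was 0.44 in place of 0.09. Myh7 had 1.47, Mybpc3 1.64 and Myom1 0.84. Counted in the same way, 278 genes were called higher (3.49% of 7963 tested) and 221 lower (2.78%). Of the 144 genes called higher with all cells, 57 were called again (39.6% of the first list and 20.5% of the second), and 133 had the same sign. Of the 208 called lower, 102 were called again (49% and 46.2%), and 208 had the same sign. The N530 cells of both comparisons are partly the same, and the C cells are the same.

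One of these 10 cells stood apart. N530 cell 16, the cell at 1564 CPM of the 4 genes, had 470 CPM of Actc1 and 240 CPM of Myh6, where the other N530 cells started at 3870 and 2590 CPM, while its 130 CPM of Tnnt2 lay above the lowest of the others (90 CPM). It carried 540 CPM of the collagen gene Col3a1, which was at 0 in the other 27 N530 cells, and 490 CPM of Fgf10. Its 260 CPM of Wt1, 130 CPM of the epicardial factor gene Tbx18 and 10 CPM of Pdgfra were exceeded in other N530 cells, which reached 2720, 230 and 4060 CPM. Without it the thick filament log2 ratio was 0.94 in the cells of like complexity, and 139 genes were called higher and 223 lower with the remaining 27 N530 cells.

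Transcript length and base composition went with the ratio between the sets. Lengths were those behind the deposited TPM, scaled to kilobases by GENCODE exons. In 5 classes of equal size, from the shortest to the longest genes, the median log2 ratio of N530 to C was -0.10, -0.13, 0.16, 0.20 and 0.59, for median lengths of 1.16, 2.10, 3.06, 4.33 and 7.00 kb. From the lowest to the highest class of GC content (the percent of G and C in the longest annotated transcript) it was -0.40, -0.03, 0.14, 0.27 and 0.60, for median contents of 40.8% to 56.7%. Long and GC-rich transcripts were thus higher in N530. The genes called higher had a median length of 5.17 kb and those called lower 3.18 kb, beside 3.06 kb for all genes tested, and their median GC contents were 50.9%, 44.3% and 48.6%. The genes of a class scattered more widely than the class medians, and in the longest class the quartiles were -0.61 and 1.79.

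In cells of like complexity the climb with length was not seen, and the shortest class had the highest median, while the climb with GC content remained. Between the 10 N530 and 11 C cells of like complexity the class medians by length were 0.29, 0.01, 0.02, -0.01 and 0.04, and those by GC content -0.41, -0.10, 0.18, 0.31 and 0.49. At E12.5, where 8 cells titled N523 can be set beside 20 cells titled C, the medians by length ran the other way, from 0.11 for the shortest to -0.79 for the longest genes, and those by GC content ran the same way, from -0.68 to 0.19. The E12.5 cells are other cells than those of E9.5.

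**Figure D2:**
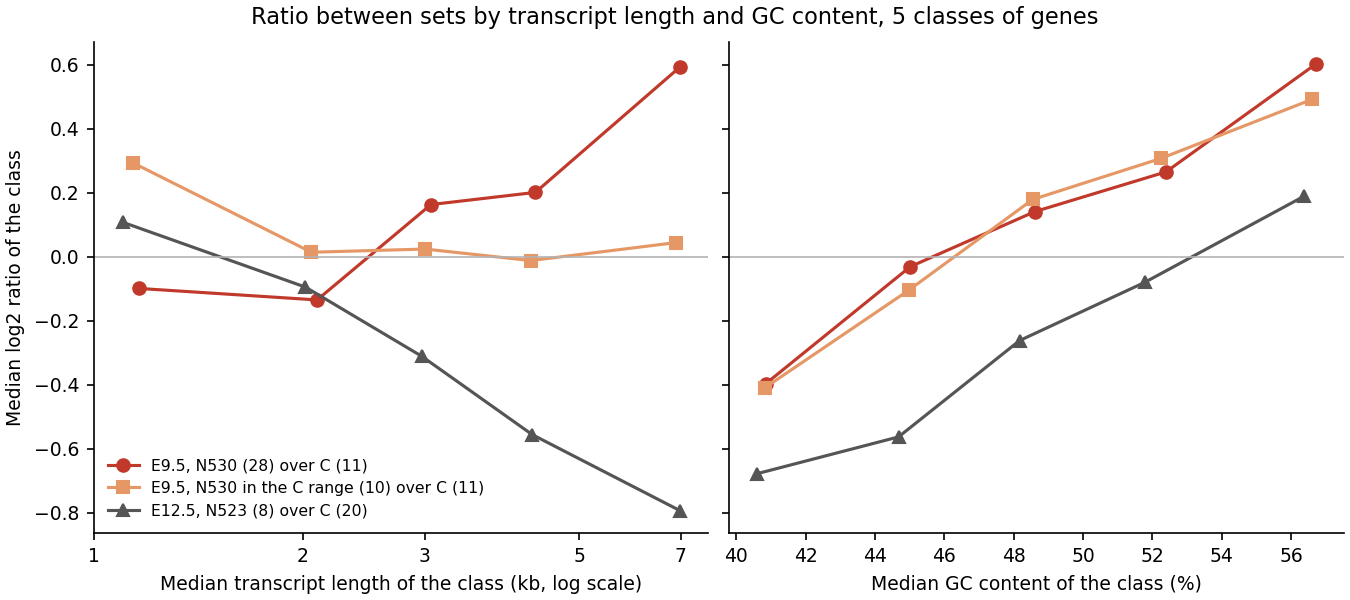
Median log2 ratio between sets in 5 equal classes of genes by transcript length (left, kb on a log scale) and GC content (right, percent). Red circles, N530 (28 cells) over C (11) at E9.5; orange squares, the 10 N530 cells in the C range of genes found over the same C cells; grey triangles, N523 (8) over C (20) at E12.5. The red line climbs to 0.59 with length and to 0.60 with GC content, the orange line climbs with GC content only, and the grey line falls with length.

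Because of these relations, each ratio was also set against the median of the tested genes of the same length and GC class, in 25 classes. On that scale the log2 difference of Ttn was 1.29, of Myh7 0.70, of Mybpc3 1.23 and of Myom1 1.80, and Myh6 was at 0.05. The median of the thick filament genes was 1.38 before and 0.70 after this step, and that of the thin filament genes 0.42 and 0.29. Whether length, GC content or genes found has a part in any difference was not tested.

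The genes with the largest ratios were not sarcomere genes. Kif26b, a kinesin family member of the embryo, led the genes higher in N530. It was found in 15 of 28 N530 cells (53.6%, exact binomial interval 33.9 to 72.5) and in 1 of 11 C cells (9.09%, 0.230 to 41.3), at 0, 20 and 1240 CPM in the lowest, median and highest N530 cell. Such intervals, here and for the other shares of cells, cover the counting of cells within 1 sample only and not differences between samples. Its 405 and 3 thinned counts give a ratio of 53.04 (interval 18.0 to 258). Next came Ahctf1, which encodes the nuclear pore protein ELYS, with a ratio of 51.5 on 262 and 2 counts (14.1 to 427), and the dynactin subunit gene Dctn1, with 38.8 on 296 and 3 counts (13.1 to 189). The initiation factor gene Eif3b stood at 380 CPM in N530 and 11.8 CPM in C, and the cullin regulator Cand1 at 494 and 33.6 CPM. The other 7 of the 12 largest ratios were those of Usp19, Pgrmc2, Zdbf2, Sel1l, Faf2, Usp25 and Gon4l, with log2 ratios from 4.63 down to 3.95. Many of these levels rested on few cells, since the median N530 cell had 70 CPM of Eif3b and the highest 5410 CPM.

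Of the 12 genes with the largest ratios in the other direction, Cyp39a1, an oxysterol hydroxylase, stood at 0, 0 and 30 CPM in the lowest, median and highest N530 cell and at a median of 180 and a highest value of 530 CPM in the C cells. Its set levels were 1.79 and 199 CPM. Kbtbd4 had 3 counts in N530 and 113 in C, a ratio of N530 to C of 0.00212 to 0.0313 by its counting interval. D3Ertd751e and Cdc73, a subunit of the PAF1 elongation complex, had 2 and 3 counts in N530 and 67 and 87 in C. Acer3, Dusp1, Ppm1h, Gm14295, Tm2d1, Slc18a2, Ubxn8 and Gstm1 completed the list, with log2 ratios from -5.73 to -4.33. Slc18a2, the vesicular monoamine transporter, was the most abundant of these in C at 316 CPM over the 11 cells, with 1790 CPM in the highest of them. These genes were found in at most 21.4% of N530 cells and in 54.5% to 81.8% of C cells, where the call itself asked for at least 50%.

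**Figure D3:**
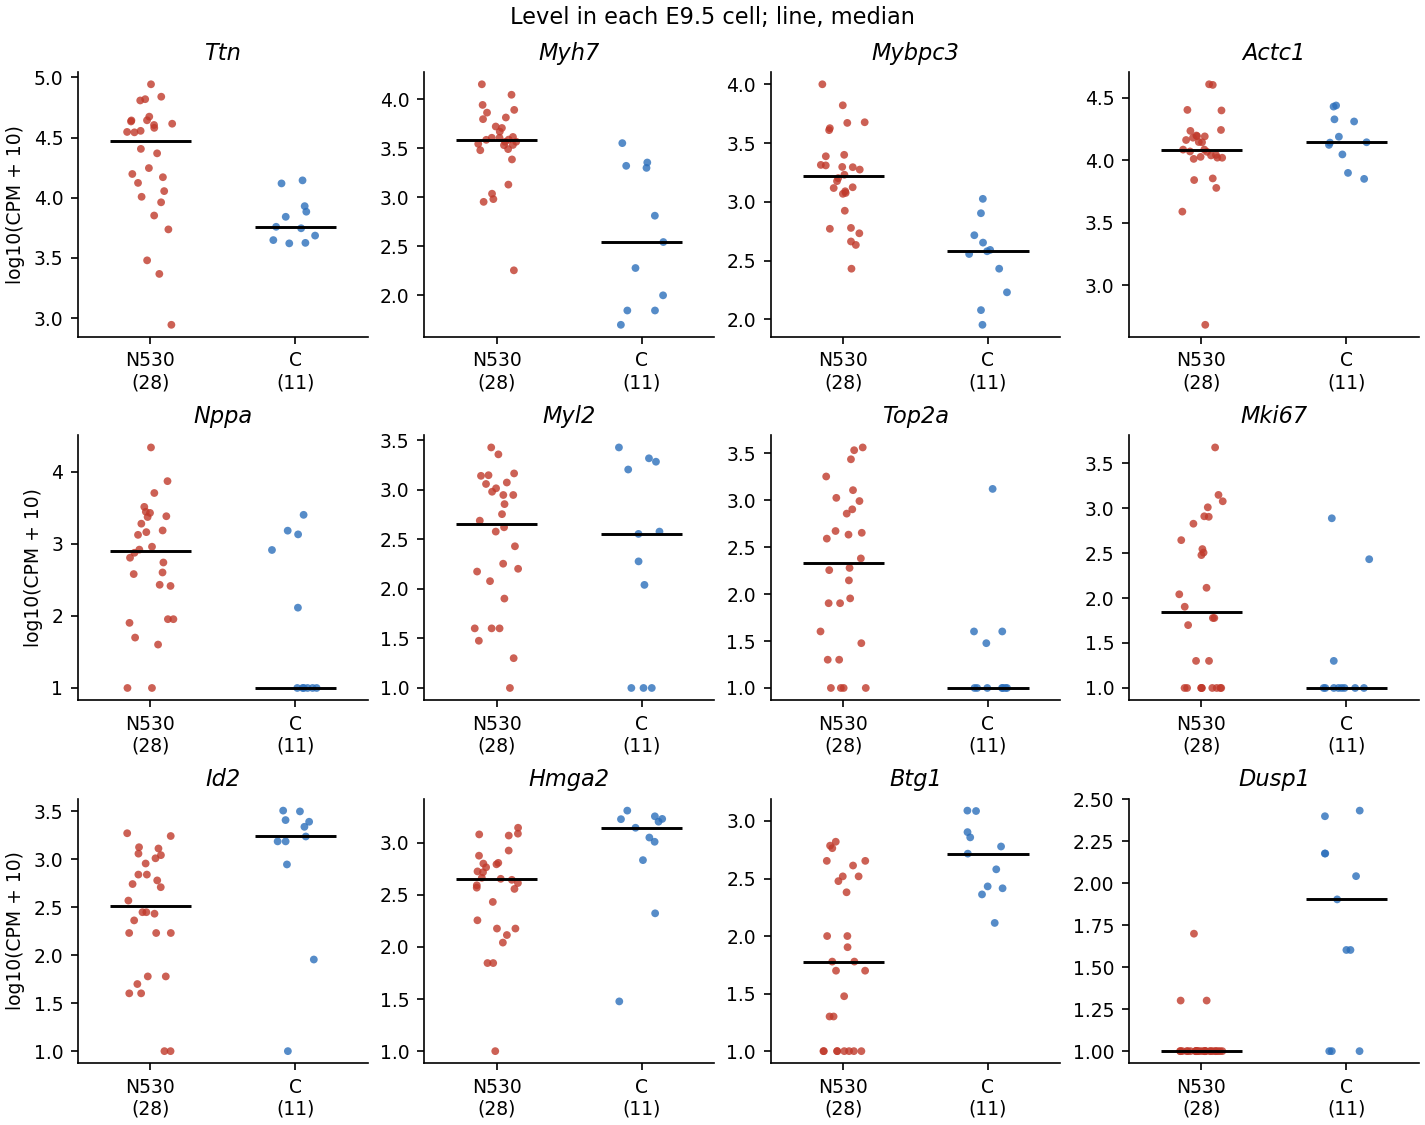
Level of 12 genes in each E9.5 cell, as log10(CPM + 10), so that a cell with no count lies at 1. Red points are N530 cells (28), blue points C cells (11), and lines are medians. Thick filament, chamber and mitotic genes (Ttn, Myh7, Mybpc3, Nppa, Top2a, Mki67) have higher medians in N530, Id2, Hmga2, Btg1 and Dusp1 have higher medians in C, and Actc1 and Myl2 lie at like levels.

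Genes of heart regions differed in opposite ways. Nppa was found in 26 of 28 N530 cells and in 5 of 11 C cells, at 0, 780 and 21670 CPM in the lowest, median and highest N530 cell and at 0, 0 and 2510 CPM in the C cells. The set levels of 2103 and 572 CPM gave a log2 ratio of 1.88, which was 1.27 without the highest N530 cell and 2.78 in the cells of like complexity. The highest cell, at 21670 CPM, is one of those 10, and without it, a setting also chosen after the data were seen, their log2 ratio was 1.78. Nppa is under the 4-fold limit and was not called. The other genes of the chamber lists were mixed. The log2 ratio of the 10 trabecular genes was 1.102 and their median over tested genes 0.29, with 4 genes above 0 and 4 below. In the cells of like complexity the trabecular ratio was 1.87, and 0.88 without the highest cell for Nppa, which is on this list. The 11 ventricular genes, all tested, had a ratio of 0.97 and a median of 0.17. Myh7 was their only call, beside 1.77% of all genes tested that were called higher. Myl2 was found at 100 CPM or more in 21 of 28 N530 cells (75%, 55.1 to 89.3) and in 8 of 11 C cells (72.7%, 39 to 94). Hey2 and Irx4, transcription factors of the ventricle, reached 100 CPM in 4 N530 cells each (14.3%, 4.03 to 32.7) and in 0 of 11 C cells, where the exact interval reaches 28.5%.

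The 20 atrial and inflow genes had a log2 ratio of 0.44, carried by Nppa, and a median of -0.47 over 15 tested genes. In the cells of like complexity the ratio was 1.18, and 0.52 without the highest cell for Nppa. Nr2f2, the atrial regulator COUP-TFII, reached 100 CPM in 50% of N530 cells (30.6 to 69.4) and in 45.5% of C cells (16.7 to 76.6). Wnt2, a ligand of the inflow tract, reached it in 3 of 28 and 6 of 11 cells (10.7%, 2.27 to 28.2, and 54.5%, 23.4 to 83.3), with set levels of 95.4 and 227 CPM. Both sets thus contained cells with atrial and cells with ventricular transcripts.

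Genes of the atrioventricular canal were lower in N530 in sum. The 11 genes summed to 0, 810 and 3520 CPM in the lowest, median and highest N530 cell and to 50, 2560 and 5000 CPM in the C cells, a log2 ratio of -1.15. Over the sets the sum was 1140 CPM in N530 and 2533 CPM in C. Id2, an inhibitor of basic helix-loop-helix factors, made up most of the sum in C. It stood at 0, 315 and 1850 CPM in N530 cells and at 0, 1710 and 3190 CPM in C cells, and its set levels of 548 and 1742 CPM differed 3.18-fold, with the N530 cell higher in 20.1% of pairs. The canal ligand Bmp2 stood at 24.6 and 104 CPM, its target Msx2 at 5.71 and 59.1 CPM, and the Wnt agonist Rspo3 at 26.8 and 186 CPM. Each of the 3 was found in a minority of cells of both sets, and none was called. Tbx20, which is also expressed in the chambers, stood at 484 and 398 CPM. Of the 6 tested genes, 2 lay above 0 and 4 below. Their median was -1.87 before and -1.75 after the comparison with genes of like length and GC content, and the list ratio was -1.69 in the cells of like complexity.

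Genes of the second heart field were mixed and at low levels. The list of 21 had a log2 ratio of -0.21 and a median of -0.69 over 6 tested genes, of which 3 lay above 0 and 3 below. When the highest value of each gene was left out of each set, the ratio was -1.52. Isl1 was found in 4 of 28 N530 cells and in 3 of 11 C cells, at 11.8 and 103 CPM, and Fgf10 in 7 and 4 cells, at 32.9 and 143 CPM. Foxh1, a SMAD partner, was called lower in N530 (8.57 and 70 CPM). Pdgfra, a growth factor receptor of mesoderm and mesenchyme, stood at 163 and 10.9 CPM, with 4060 CPM in 1 N530 cell, without which its log2 ratio was 0.73 in place of 3.90. The VEGF receptor gene Kdr stood at 63.9 and 38.2 CPM. The 20 outflow tract and right ventricle genes had a log2 ratio of -0.41 and a median of -0.83, with none called.

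Genes that mark early stages did not move as a group. Of 16 tested, 7 had ratios above 0 and 9 below, and the 3 called were Kif26b, Col2a1 and Thbs4, all higher in N530, beside 1.77% of all genes tested. The study chose these 3 genes, with Prtg, Sall4 and Hmga2, on these cells. Col2a1, a collagen of cartilage and of the early heart, stood at 0, 360 and 3020 CPM in N530 cells and at 0, 30 and 260 CPM in C cells, with a log2 ratio of 3.06 that was 0.76 in the cells of like complexity. Thbs4, thrombospondin 4, had a log2 ratio of 2.46 with all cells and of -0.21 in the cells of like complexity. Kif26b had 5.73 and 5.48. Hmga2, a chromatin protein of embryonic growth, was the most abundant of the list by the mean of the 2 sets. It stood at 0, 435 and 1380 CPM in N530 cells and at 20, 1380 and 2020 CPM in C cells, with set levels of 494 and 1193 CPM, and its log2 ratio was -1.27 with all cells and -1.44 in those of like complexity. Prtg stood at 569 and 319 CPM and Sall4 at 164 and 226 CPM. The 26 genes of fetal and later stages had a log2 ratio of 0.00, with none of the 12 tested called. Of these 12, 8 lay above 0 and 4 below, with a median of 0.38. In the cells of like complexity the list ratio was 0.51.

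Stage was also read from cells outside this comparison. Between 38 P1 cells and the 20 E12.5 cells titled C, 116 genes were called higher at P1 (1.55% of 7505) and 285 lower (3.8%). Of the 86 genes higher at P1 that were tested at E9.5, 55 had ratios of N530 to C above 0 and 31 below, with a median log2 ratio of 0.50. Of the 285 genes lower at P1, 116 lay above 0 and 169 below, with a median of -0.32. All 8130 genes had a median of 0.10, with 4293 above 0 and 3833 below. Against genes of like length and GC content the medians of the stage genes were 0.30 and -0.41, and in the cells of like complexity they were 0.52 and -0.27. Of the 86 genes, 3 were called higher (3.49%) and 1 lower (1.16%) in N530, and of the 285 genes, 9 were called higher (3.16%) and 22 lower (7.72%), beside 1.77% and 2.56% of all genes tested.

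Cell cycle genes had higher sums in N530 over all cells. The 34 genes of mitosis summed to 120, 3990 and 14840 CPM in the lowest, median and highest N530 cell and to 20, 1370 and 10630 CPM in the C cells. The log2 ratio was 0.90, 29 genes lay above 0 and 5 below, and 5 were called, all higher (beside 1.77% of all genes tested): Top2a (topoisomerase IIα), Mki67, the centromere proteins Cenpf and Cenpe, and Racgap1, which acts in cytokinesis. Top2a was found in 24 of 28 N530 cells and 4 of 11 C cells, at 0, 205 and 3640 CPM against 0, 0 and 1310 CPM. It reached 100 CPM in 17 N530 cells (60.7%, 40.6 to 78.5) and in 1 C cell (9.09%, 0.230 to 41.3). Mki67, which marks cycling cells, reached 100 CPM in 13 N530 cells (46.4%, 27.5 to 66.1) and 2 C cells (18.2%, 2.28 to 51.8). When the highest value of each gene was left out of each set, the ratio of the list was 1.48. Not all genes of mitosis followed. Cenpa, the centromeric histone, stood at 81.8 CPM in N530 and 258 CPM in C, and Ccnb1 (cyclin B1) at 408 and 346 CPM.

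In the cells of like complexity the mitosis ratio was 0.20, and Cenpe and Racgap1 had log2 ratios of -0.31 and -0.71. Top2a had 1.29 and Mki67 1.09. The 27 replication genes had a ratio of 0.55 both with all cells and in those of like complexity. Mcm2, a subunit of the replicative helicase, stood at 268 and 23.6 CPM, the ribonucleotide reductase subunit Rrm2 at 448 and 109 CPM and the DNA ligase Lig1 at 259 and 51.8 CPM, and these 3 of 26 tested were called higher, beside 1.77% of all genes tested. Ccna2 (cyclin A2) stood at 163 and 64.5 CPM, and Cdc6, found in 2 N530 cells and 2 C cells, at 46.8 and 10 CPM.

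Stress genes did not share 1 direction. The 42 immediate early genes, which are switched on within minutes of a stimulus, summed to 430, 1990 and 6050 CPM in the lowest, median and highest N530 cell and to 520, 3510 and 17120 CPM in the C cells. The log2 ratio was -1.02, and 25 of 29 tested genes lay below 0. Dusp1, a phosphatase of MAP kinases, was the 1 of these 29 genes called, beside 2.56% of all genes tested that were called lower. It was found in 3 of 28 N530 cells (10.7%) and in 8 of 11 C cells (72.7%), with a highest value of 40 CPM in N530 and a median of 70 and a highest value of 260 CPM in C. The antiproliferative genes Btg1 and Btg2 stood at 169 and 568 CPM and at 243 and 840 CPM in N530 and C, Egr1 at 129 and 277 CPM, Cyr61 at 181 and 428 CPM and Fos at 451 and 539 CPM. Btg1 was found in 20 of 28 N530 cells and in 11 of 11 C cells. The list ratio was -1.12 in the cells of like complexity, and the median over its genes was -1.101, or -1.47 against genes of like length and GC content. The 23 p53 targets had a log2 ratio of -1.097, with 5 of 14 tested genes above 0 and 9 below, a median of -0.55 and none called. Btg2, which is also on this list, made up 840 of their 1665 CPM in C.

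Heat shock genes were at like levels in sum, 10118 CPM in N530 and 7883 CPM in C, a log2 ratio of 0.36. The cytosolic chaperone gene Hsp90ab1 stood at 4506 and 2875 CPM and the constitutive Hspa8 at 1638 and 1323 CPM. Hsph1 was called higher (172 and 39.1 CPM) and Hspa2 lower (17.1 and 179 CPM). The inducible genes Hspa1a and Hspa1b were found in N530 only. Each was found in 9 of 28 cells (32.1%) and in 0 of 11 C cells, whose summed counts of 0 allow up to 2.73 CPM, and each reached 100 CPM in 3 cells. Against that limit, Hspa1b at 65.4 CPM was at least 23.96-fold higher and Hspa1a at 25.7 CPM at least 9.43-fold higher, without the counting error of the N530 values. Their coding sequences are nearly the same, so reads may have been split between them or lost. Neither was called, since both were found in less than 50% of cells. The 26 genes of the unfolded protein and amino acid response had a ratio of 0.03.

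The start regions of Hspa1a and Hspa1b are shown because these were the heat shock genes found in N530 and in no C cell, and because they show how alike the pair is. The sequences, from RefSeq on GRCm38.p6, run from 250 bases before to 50 after the annotated start, on the minus strand, at chr17:34972107-34972406 for Hspa1a and chr17:34959189-34959488 for Hspa1b. Capitals mark matches to the heat shock motif GAANNTTC or TTCNNGAA, searched on both strands (both forms read the same on either strand).
Hspa1a: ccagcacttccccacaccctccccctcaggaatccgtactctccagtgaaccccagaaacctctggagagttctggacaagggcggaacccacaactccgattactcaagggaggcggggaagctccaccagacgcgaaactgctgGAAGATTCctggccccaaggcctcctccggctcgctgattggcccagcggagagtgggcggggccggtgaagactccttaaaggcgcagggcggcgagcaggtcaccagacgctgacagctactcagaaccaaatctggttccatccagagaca
Hspa1b: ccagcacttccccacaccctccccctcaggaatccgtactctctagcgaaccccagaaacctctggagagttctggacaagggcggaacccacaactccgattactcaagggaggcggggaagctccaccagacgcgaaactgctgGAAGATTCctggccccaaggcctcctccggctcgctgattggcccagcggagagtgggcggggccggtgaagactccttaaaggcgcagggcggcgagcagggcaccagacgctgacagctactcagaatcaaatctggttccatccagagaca
The sequences differ at 4 of 300 bases. Each holds 1 match, and 15.1% of all 32851 promoters of this length hold at least 1, and a match is a description of the letters only.

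Matrix genes were mostly higher in N530. Of 25 tested, 21 lay above 0 and 4 below, and 6 were called higher and 1 lower, beside 1.77% and 2.56% of all genes tested. The median log2 ratio was 2.30, beside 0.10 for all genes. Against genes of like length and GC content the median was 1.45, and the log2 ratio of the summed counts was 0.96. The sum ran from 1010 to 11780 CPM in N530 cells (median 5820) and from 960 to 5540 CPM in C cells (median 2720), and 16 N530 cells lay above every C cell. The basement membrane genes Col4a1, Col4a2, Lamb1 and Lamc1 were called higher together with Col2a1 and Thbs4. Col4a1 stood at 252 and 32.7 CPM, Col4a2 at 277 and 37.3 CPM, Lamc1 at 147 and 15.5 CPM and Lamb1 at 296 and 60 CPM. Col12a1 was called lower, at 4.64 and 78.2 CPM. The proteoglycan Vcan, the most abundant gene of the list, stood at 1512 and 1430 CPM. In the cells of like complexity Col4a1, Col4a2 and Lamc1 had log2 ratios of 2.79, 2.24 and 2.86, and the median of the list was 0.58.

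Calcium handling genes had a log2 ratio of 0.89 that was 0.05 in the cells of like complexity. Of 16 tested, 1 was called higher, beside 1.77% of all genes tested. The ryanodine receptor gene Ryr2 stood at 1636 and 441 CPM (1.89, and 0.29 in those cells), the calcium pump Atp2a2 at 2206 and 606 CPM (1.87 and 0.65), and Jph2, which joins the membranes of the calcium release site and was the gene called, at 111 and 10.9 CPM (3.34 and -0.86). Phospholamban (Pln) stood at 77.9 and 269 CPM. The 19 Z-disc and costamere genes had a log2 ratio of -0.10, and of -0.45 in the cells of like complexity. Of the 17 tested, 9 lay above 0 and 8 below. Filamin C (Flnc, 450 and 37.3 CPM) and Xirp1 (603 and 99.1 CPM) were called higher, beside 1.77% of all genes tested. Ankrd1, a stretch-responsive gene, stood at 2615 and 5176 CPM. The C cells had a median of 2200 CPM of Ankrd1, and 1 of them reached 20230 CPM.

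Energy genes were at like levels in sum over all cells. The 76 respiratory chain and ATP synthase genes had a log2 ratio of 0.04 and the 20 of glycolysis 0.02. In the cells of like complexity these ratios were 0.42 and 0.43. Uqcrfs1, the Rieske iron-sulfur subunit, was called lower in N530 and was the only call among their 75 and 20 tested genes. Of all genes tested, 2.56% were called lower. Uqcrfs1 stood at 0, 10 and 270 CPM in N530 cells and at 50, 240 and 750 CPM in C cells. The N530 cell was higher in 11% of pairs. The 24 hypoxia targets had a ratio of 0.10, and the 14 smooth muscle genes 0.06.

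Among growth factor and patterning genes the log2 ratio was -0.58, with 15 tested genes above 0 and 17 below. Igf2r, the receptor that clears IGF2, stood at 3161 and 5596 CPM, its ligand Igf2 at 1011 and 346 CPM, and the Notch ligand Jag1 at 921 and 1571 CPM. Erbb2, the neuregulin co-receptor of heart muscle, was called higher at 138 and 24.5 CPM. Among long noncoding RNAs, Tug1 was found in 18 of 28 N530 cells and in 11 of 11 C cells, at 0, 110 and 4360 CPM against 990, 2190 and 5080 CPM, and was called lower by 4.23-fold. Malat1 stood at 8312 and 6197 CPM and the imprinted H19 at 866 and 298 CPM. The ribosomal precursor Rn45s, which has no poly(A) tail, stood at 9832 and 5483 CPM, and 85 ribosomal protein genes summed to 20928 and 24755 CPM.

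**Figure D4:**
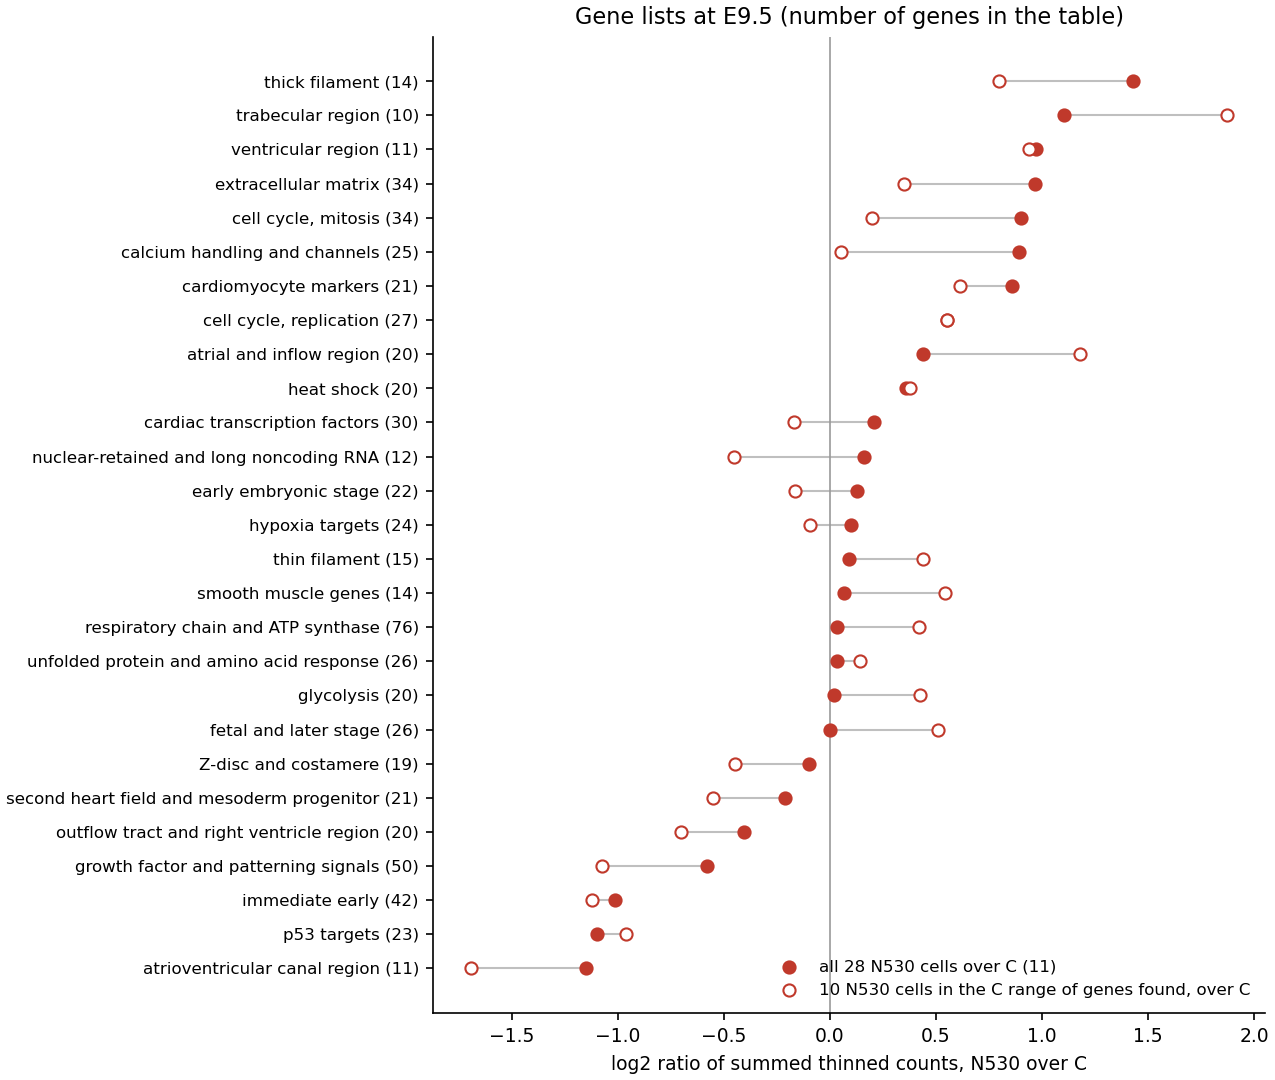
Log2 ratio of summed thinned counts, N530 over C, for the 27 gene lists with at least 5 tested genes. Filled points use all 28 N530 cells, open points the 10 N530 cells within the C range of genes found, both over 11 C cells; the number of genes of a list is in brackets. The thick filament, matrix, mitosis and calcium handling lists lie nearer 0 in the cells of like complexity, and the atrioventricular canal and immediate early lists lie below -1 on both.

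Markers of other cell types were low in most cells of both sets, and the highest cell sums of each list were in N530. The 10 epicardial markers summed to a median of 5 and a highest value of 2720 CPM in N530 cells and of 0 and 540 CPM in C cells, and 6 of the 10 were at 0 in each set. Wt1, found in 5 N530 cells and 1 C cell, stood at 113 and 1.82 CPM, and its highest cell held 2720 CPM. The 11 mesenchyme and cushion markers had medians of 0 in both sets, with highest values of 4060 and 120 CPM. The N530 value was that of Pdgfra in a single cell. The 14 endothelial and endocardial markers had medians of 10 and 40 CPM and highest values of 1670 and 260 CPM. Npr3, an endocardial gene that is also found in early heart muscle, was found in 7 N530 cells and no C cell. The 11 endoderm and epithelial markers summed to 195 CPM in N530 and 183 CPM in C, with medians of 30 and 160 CPM and highest values of 1000 and 560 CPM. Of these, the keratin gene Krt18 stood at 60.7 and 157 CPM and Krt8 at 135 and 25.5 CPM. The 12 erythroid and 11 neural crest and neural markers were at 0 in all C cells and reached 220 and 290 CPM in N530. The 21 cardiomyocyte markers summed to 4920 to 174440 CPM in N530 and to 33490 to 70800 CPM in C. The part of such cells in the ratios was not tested.

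Cells with transcripts of either sex were present in both sets. With at least 10 thinned counts as the limit, 4 N530 and 6 C cells carried Xist alone, 9 and 3 carried Y-linked transcripts alone, 14 and 2 carried neither, and 1 N530 cell carried both.

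The E12.5 cells show how far a pair of title sets differs when the stage is another. Between N523 and C, 168 genes were called higher (2.3% of 7302) and 397 lower (5.44%). Of the genes called higher in N530 at E9.5, 137 were tested at E12.5 and 58 of them had ratios above 0. There 9 were called higher and 12 lower. Of the genes called lower in N530, 197 were tested, 135 lay below 0, and 26 were called lower and 4 higher. Of all 7302 genes tested at E12.5, 3166 lay above 0 and 4120 below, with a median of -0.28. Pearson's r of the log2 ratios was 0.045 across 6437 genes tested at both stages, which are not independent replicates. The immediate early ratio was 0.00 at E12.5 and that of mitosis 0.11. The thick filament ratio was 0.16, while the atrioventricular canal ratio was -2.37, with 3 genes tested. Nppa had log2 ratios of 1.88 at E9.5 and 7.53 at E12.5. Id2 was lower in the N set at both stages, with log2 ratios of -1.67 and -2.13. Whether the sets differ between stages was not tested.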

How the data were processed

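The authors mapped single reads with OLego and counted them per gene symbol with featureCounts; the submitters' processing notes name GRCm38 (mm10). They deposited raw counts, and TPM on a linear scale made from those counts. Both tables hold 123 cells, grouped here by their titles.

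Counts were thinned without replacement to 100000 per cell (seed 1), summed per set and expressed as CPM, with exact 95% Poisson intervals; shares carry exact (Clopper-Pearson) intervals. A summed count of 0 was read as up to 3 counts. Each set is 1 sample, so no test was run. Transcript lengths were read from the ratio of counts to deposited TPM and scaled with GENCODE M21; 7372 of 8130 tested genes (90.7%) had both a length and a GC content. Named genes were the 12 largest called ratios in each direction, in each of 34 lists the 4 most abundant members and the 2 largest ratios each way, the genes of the minimum and those named by the study; others were chosen after their values were seen, and some named members are not reported here. The members, lists and rules were chosen with earlier results of these data known. Of the list symbols, 14 were not matched. Scripts were tested on simulated data. Python 3.11.15, numpy 2.4.6, pandas 2.3.3, scipy 1.17.1, edgeR 4.0.16 and DESeq2 1.42.0 (scaling factors only) were used.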

Additional observations from a re-analysis of the deposited data

How the results depend on the processing

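Over 18 other settings run on the 32 gene lists with counts in both sets, no list whose log2 ratio was 1 or more in size changed sign. The setting that left out the highest value of each gene covered 30 of these lists. The 144 genes called higher became 344 with unthinned cells averaged as CPM, 315 with their counts pooled and 266 with deposited TPM, of which 131, 113 and 112 were among the 144, while the 208 called lower became 216, 187 and 195. Under a 2-fold limit 443 were higher and 738 lower, and with no minimum share of cells 694 and 399. Other thinning seeds gave 142 to 149 higher and 192 to 212 lower, of which 106 to 115 and 162 to 171 were the genes first called. Without thinning the medians of genes found differed by -153.5. The thick filament log2 ratio was 0.65 with deposited TPM. TMM and median-ratio factors moved every ratio by 0.02 in size. In the 10 N530 cells of like complexity, chosen after seeing the data, 278 genes were higher, the ratios were 0.80 for thick filaments, 0.20 for mitosis and 0.35 for matrix, and 6 of 32 lists and 35 of 206 genes followed had the other sign, of which Jph2 (-0.86), Thbs4 (-0.21), Cenpe (-0.31) and Racgap1 (-0.71) had been called. Without cell 16 among them the values were 233 genes, 0.94, 0.31 and 0.30, with 0.58 for thin filaments and -1.79 for the atrioventricular canal, and -0.71, -0.06, -0.16 and -0.56 for those 4 genes. The causes were not tested. No paired analysis was possible because cells of the sets share no replicate and no test was run. The thinned depth limits values near 10 CPM per cell.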
